A study of Mus musculus with 8 samples.

Results

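Glycolytic enzymes and the main glucose carrier were followed in ileal tumours. The members were the 10 gene symbols Slc2a1, Hk1, Hk2, Pfkl, Aldoa, Tpi1, Pgk1, Eno1, Pkm2 and Ldha, and every probe carrying one of them was taken. Of the 25697 probes on the array, 12 did so, and they covered 9 of the 10 symbols. Hk2, the hexokinase induced in many tumours, was not analysed here. Of the 12 probes, 11 from 8 genes were bright enough, meaning that at least 4 of the 8 arrays had a detection p below 0.05, and entered the comparison among 13426 tested probes.

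Glycolysis splits glucose into pyruvate in the cytosol, and the steps measured here run from glucose entry to lactate. Glucose enters through facilitated carriers, is trapped as glucose 6-phosphate by hexokinases, passes phosphofructokinase as the main committed step, is cleaved by aldolase, and leaves the pathway as pyruvate or, through lactate dehydrogenase, as lactate. Tumours are known for high glucose uptake and lactate release even with oxygen present, and the genes of the pathway are classic targets of hypoxia-inducible factor and of Myc. Liver X receptor alpha, a nuclear receptor activated by oxidised sterols, is known in liver and fat as a regulator of glucose genes as well as of sterol and fatty acid genes.

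RNA came from ileal tumours of 8-month-old mice in a C57BL/6J-FVBN mixed strain. The 4 VP16LXRa arrays held tumours of genotype APCmin/+/VP16LXRa, in which liver X receptor alpha is fused with the viral transactivation domain VP16. The 4 control arrays held tumours of genotype APCmin/+/VP16, with VP16 and no receptor. All 8 tumours therefore carried the heterozygous Apc Min mutation, which causes intestinal tumours. The sources used here name neither the promoter that drives the transgene, nor the sex of the mice, nor the animal behind each array, so p-values measure the spread between these arrays, which may be technical. The comparison asks how tumours with the constantly active receptor differed from tumours with the transactivation domain alone.

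Each array detected 49.0% to 54.7% of its probes, with a median bead signal of 134 to 165. VP16LXRa 5 stood apart, with a median correlation with the other arrays of 0.927 against 0.952 to 0.967 for the other 7, and results are therefore also given without it. Of the markers of epithelium, 9 of 10 were detected well enough to be tested, as were 10 of 12 Wnt target and stem cell markers. Of 13 ileal enterocyte markers, 10 had a probe and 7 were tested. The same filter passed 11 of 11 smooth muscle, 9 of 10 fibroblast and 9 of 9 macrophage markers, so passing it does not single out epithelium. The summed level of the epithelial markers on the log2 scale was 16.65 to 16.80 in VP16LXRa and 16.68 to 16.97 in control tumours. In such bulk samples, fewer cells of a type and less RNA per cell cannot be told apart.

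The start regions of 3 members that differ in how much they varied are shown for reference, from RefSeq on GRCm38.p6, each running from 250 bases before to 50 bases after the annotated start. They are Slc2a1, which had the largest SD between arrays of a group among the 11 tested probes, Pfkl, and Ldha, which had the smallest. The brighter Pfkl probe also varied widely, with an SD of 0.93, and its dimmer probe less, with 0.30. Eno1, at 1.05, varied more than Pfkl and is not shown. Capitals mark ACGTG on either strand, the core of the hypoxia response element, and TATAAA on the printed strand. The windows lie at chr4:119108495-119108794 on the plus strand for Slc2a1, chr10:78009758-78010057 on the minus strand for Pfkl and chr7:46845554-46845853 on the plus strand for Ldha, whose first of 2 annotated starts is printed.
Slc2a1: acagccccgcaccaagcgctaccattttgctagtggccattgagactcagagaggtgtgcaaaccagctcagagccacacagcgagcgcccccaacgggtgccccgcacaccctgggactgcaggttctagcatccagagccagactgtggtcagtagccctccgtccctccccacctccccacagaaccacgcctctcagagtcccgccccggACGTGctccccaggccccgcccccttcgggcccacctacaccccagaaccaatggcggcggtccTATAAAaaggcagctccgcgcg
Pfkl: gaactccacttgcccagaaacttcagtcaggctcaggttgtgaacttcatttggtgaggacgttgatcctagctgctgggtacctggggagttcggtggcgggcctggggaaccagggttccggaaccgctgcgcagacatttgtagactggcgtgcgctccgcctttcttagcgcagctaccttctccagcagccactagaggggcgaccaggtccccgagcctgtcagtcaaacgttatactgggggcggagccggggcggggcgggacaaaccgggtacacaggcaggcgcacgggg
Ldha: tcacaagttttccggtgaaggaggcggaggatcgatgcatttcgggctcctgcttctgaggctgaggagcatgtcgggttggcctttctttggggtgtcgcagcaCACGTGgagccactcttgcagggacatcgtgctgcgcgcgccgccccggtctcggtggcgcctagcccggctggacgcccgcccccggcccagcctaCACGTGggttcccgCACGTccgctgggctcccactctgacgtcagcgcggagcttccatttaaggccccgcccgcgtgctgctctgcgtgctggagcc

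The Slc2a1 window held ACGTG 36 bases before the start. It was the only one of 17 member windows with TATAAA, which 8.32% of all 32851 windows hold. That TATAAA lay after the annotated start, within the last 50 bases of the window. The Ldha window held 3 separate stretches with ACGTG on one strand or the other, beginning 145, 48 and 34 bases before the start, and the first 2 of these were the palindrome CACGTG, which contains ACGTG and is an E-box bound by Myc and its relatives. The Pfkl window held neither motif. RefSeq gave a window for all 10 members, and 7 members had ACGTG in at least 1 of theirs. Counted by window, 8 of the 17 held it, and 19.6% of all windows did. Windows can overlap: both Aldoa windows among the 8 hold the same site, 126 and 202 bases before their starts. The Ldha window shown was also the only one with CACGTG, present in 7.15% of all windows. An idealised binding element of liver X receptors, AGGTCA repeated after 4 bases of any kind, was searched on both strands and was in 0 of the 17, against 0.0152% of all windows. These matches are letters in a window and were not tested as binding sites.

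No member differed between VP16LXRa and control tumours beyond the spread between arrays. Of the 11 tested probes, 0 passed an adjusted p of 0.05 with limma, where 0% of all tested probes did, and 0 had an unadjusted p under 0.05, where 2.53% of all probes did, made up of 1.72% that were higher and 0.812% that were lower in VP16LXRa tumours. The groups overlapped for all 11 probes, while 1.74% of all probes had groups that did not overlap. Of the 8 genes, each by its brightest tested probe, 6 were nominally higher and 2 nominally lower in VP16LXRa tumours, with 50.2% of all tested probes nominally higher. The median difference, VP16LXRa minus control on the log2 scale, was 0.11 over the 8 genes. It was 0.021 over all tested genes, each by its brightest probe, and 0.0018 over all tested probes. Without VP16LXRa 5 the median of the 8 genes was -0.013, with 4 genes on each side. It was also below 0 without VP16LXRa 7 (-0.049), control 2 (-0.0024) or control 3 (-0.046). The limma adjusted p was 0.998 for each of the 11 probes, and the smallest unadjusted p was 0.188, that of Eno1.

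**Figure D1:**
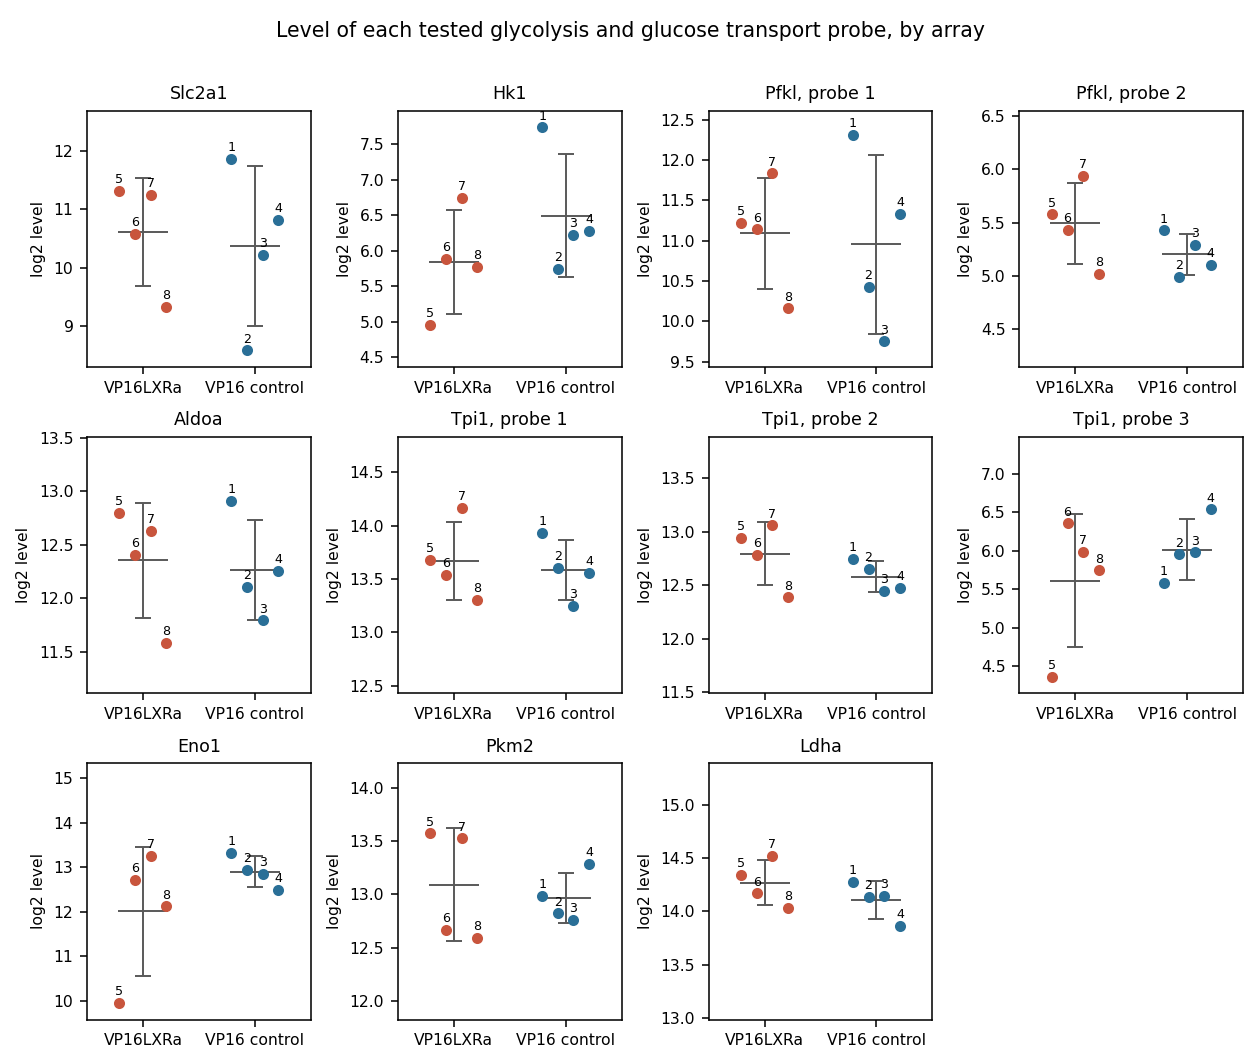
Normalised log2 level (vertical axis) of the 11 tested probes in each of the 4 VP16LXRa arrays (left, red) and 4 control arrays (right, blue); numbers name the arrays, and bars give the mean and SD of a group. The groups overlap in every panel, VP16LXRa 7 lies above VP16LXRa 8 in all 11, and VP16LXRa 5 lies far below the other arrays for Eno1.

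Slc2a1 encodes GLUT1, the basal glucose carrier of most cells. Its log2 level was 11.31, 10.57, 11.25 and 9.32 in VP16LXRa 5 to 8, against 11.86, 8.58, 10.22 and 10.81 in controls 1 to 4. Control 1 was the highest array and control 2 the lowest, a 9.72-fold range within the control group that enclosed all VP16LXRa values. The group means were 10.61 ± 0.92 in VP16LXRa and 10.37 ± 1.37 in control tumours (SD, n = 4 each), a difference of 0.24 (SE 0.69, 95% interval -1.31 to 1.80). With an SD between arrays of a group of 1.17, only 5.21% of tested probes varied more. Without control 2 the difference was -0.35, and without VP16LXRa 5 it was 0.010.

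Hk1, the hexokinase present in most tissues, stood at 4.95, 5.89, 6.74 and 5.77 in VP16LXRa 5 to 8 and at 7.73, 5.74, 6.22 and 6.28 in controls 1 to 4. Control 1 was again the highest, and VP16LXRa 5, the lowest, was the one array in which Hk1 was not detected. The means were 5.84 ± 0.73 in VP16LXRa and 6.49 ± 0.86 in control tumours (SD, n = 4 each), a difference of -0.65 (SE 0.49, 95% interval -1.76 to 0.45). That difference was -0.36 without VP16LXRa 5 and -0.25 without control 1.

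Pfkl encodes the liver-type subunit of phosphofructokinase, which makes fructose 1,6-bisphosphate. Its brighter probe was at 11.22, 11.14, 11.83 and 10.16 in VP16LXRa 5 to 8 and at 12.31, 10.42, 9.75 and 11.33 in controls 1 to 4. As for Slc2a1, control 1 was the highest array and the control values reached beyond the VP16LXRa values at both ends. The means were 11.09 ± 0.69 in VP16LXRa and 10.95 ± 1.11 in control tumours (SD, n = 4 each), and the difference was 0.14 (SE 0.56, 95% interval -1.12 to 1.39). It was -0.27 without control 3 and 0.59 without control 1, so single control tumours moved it more than the groups differed. The second, dimmer Pfkl probe ran from 5.02 to 5.94 in VP16LXRa and from 4.99 to 5.43 in control tumours, with a difference of 0.29 (SE 0.25).

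Aldoa, the aldolase that cleaves fructose 1,6-bisphosphate, was at 12.80, 12.40, 12.63 and 11.58 in VP16LXRa 5 to 8 and at 12.91, 12.10, 11.79 and 12.25 in controls 1 to 4. VP16LXRa 8 was the lowest array and control 1 the highest. The difference was 0.088 (SE 0.34, 95% interval -0.67 to 0.85), and -0.063 without VP16LXRa 5.

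Tpi1, which interconverts the pair of triose phosphates that aldolase releases, had 3 probes. The brightest was at 13.68, 13.54, 14.17 and 13.30 in VP16LXRa 5 to 8 and at 13.93, 13.61, 13.25 and 13.55 in controls 1 to 4, a difference of 0.086 (SE 0.25, 95% interval -0.49 to 0.66). The second probe differed by 0.21 (SE 0.22), with 12.39 to 13.06 in VP16LXRa and 12.45 to 12.75 in control tumours. VP16LXRa 7 was the highest array and both groups overlapped for each of these probes. The third and dimmest probe differed by -0.40 (SE 0.42). It was not detected in VP16LXRa 5, at 4.36, and lay between 5.58 and 6.54 in the other 7 arrays. Without VP16LXRa 5 the third probe differed by 0.014.

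Pgk1, the first step of the pathway that yields ATP, was represented by 1 probe that was not above background on any of the 8 arrays. Its detection p was 0.163 to 0.861 in VP16LXRa and 0.0739 to 0.850 in control tumours. The probe therefore gives no difference for Pgk1, and its signal says nothing of the gene's level in these tumours.

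Eno1, the enolase that forms phosphoenolpyruvate, had the largest nominal difference of the 11 probes, and 1 array set it. Its log2 level was 9.96, 12.71, 13.26 and 12.12 in VP16LXRa 5 to 8 and 13.32, 12.95, 12.84 and 12.49 in controls 1 to 4. In bead signal before any correction, VP16LXRa 5 gave 882, while the lowest of the other 7 arrays, VP16LXRa 8, gave 4868. The means were 12.01 ± 1.45 in VP16LXRa and 12.90 ± 0.34 in control tumours (SD, n = 4 each), a difference of -0.89 (SE 0.62, 95% interval -2.29 to 0.52). Without VP16LXRa 5 that difference was -0.20 (SE 0.32). The remaining VP16LXRa tumours overlapped the controls, with VP16LXRa 7 just below control 1.

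Pkm2 is the array's symbol for the muscle-type pyruvate kinase gene, now Pkm, and which splice form the probe detects was not tested. Pkm2 was at 13.57, 12.67, 13.52 and 12.59 in VP16LXRa 5 to 8 and at 12.99, 12.82, 12.76 and 13.28 in controls 1 to 4. Here the VP16LXRa tumours formed the wider group, with arrays 5 and 7 above all controls and arrays 6 and 8 below all controls. The difference was 0.13 (SE 0.29, 95% interval -0.53 to 0.78), and -0.036 without VP16LXRa 5.

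Ldha is the subunit of lactate dehydrogenase that favours lactate formation. Its log2 level was 14.35, 14.17, 14.52 and 14.03 in VP16LXRa 5 to 8 and 14.28, 14.14, 14.15 and 13.87 in controls 1 to 4. The means were 14.27 ± 0.21 in VP16LXRa and 14.11 ± 0.17 in control tumours (SD, n = 4 each). The difference of 0.16 (SE 0.21) had a 95% interval of -0.31 to 0.63, which as a fold is 0.809 to 1.54. This was the narrowest interval of the 11 probes, with an SD between arrays of a group of 0.194 that 94.5% of tested probes exceeded. Ldha thus bounds a group difference more tightly than Slc2a1, for which the interval ran from 0.404-fold to 3.48-fold.

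**Figure D2:**
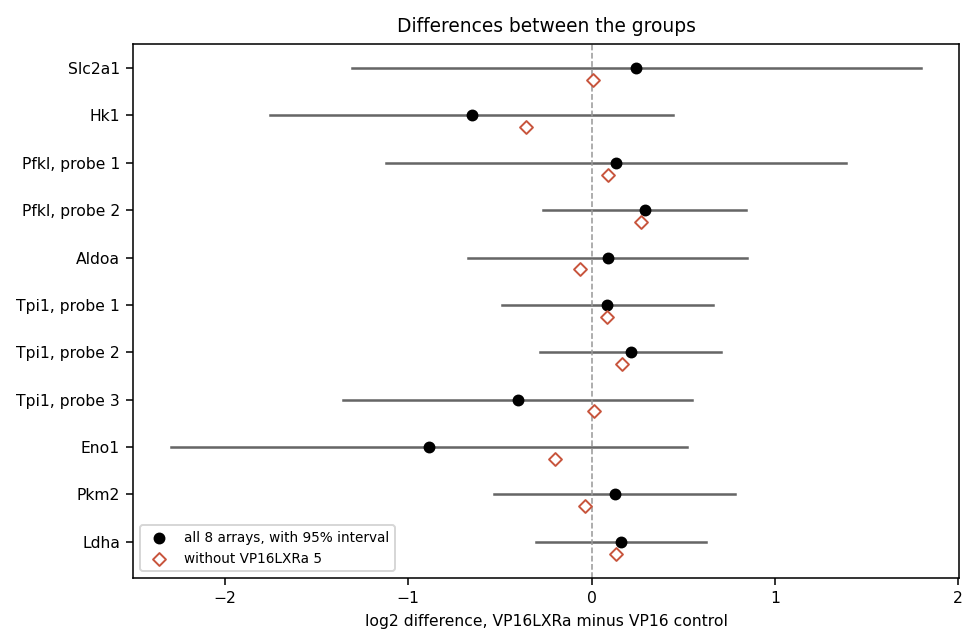
Log2 difference, VP16LXRa minus control (horizontal axis), of each tested probe, with black points for all 8 arrays, lines for the 95% interval from limma and open diamonds for the value without VP16LXRa 5. Every interval includes 0, the widest is that of Slc2a1 and the narrowest that of Ldha, and Eno1 is at -0.89 with all arrays and at -0.20 without VP16LXRa 5.

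Some tumours of one group differed by more than the group means did, for most members at once. The pairs of arrays given here were picked after their values were seen, and no test is given for them. VP16LXRa 7 was above VP16LXRa 8 for 11 of 11 probes, by 0.24 to 1.92 on the log2 scale, with a median of 1.01 over the 8 genes, while 48.2% of all tested probes were higher in VP16LXRa 7. Among controls, control 1 was above control 3 for 10 of 11 probes, with a median of 0.90 over the 8 genes, where 48.4% of all tested probes were higher. Control 1 was also above control 2 for 10 of 11 probes, where 52.4% of all tested probes were higher. Control 1 was the highest array for 5 of the 8 genes, namely Slc2a1, Hk1, Pfkl, Aldoa and Eno1. The share of all tested probes that were highest in control 1 was not computed. The mean deviation of the 8 genes from their 8-array means was -0.18, -0.03, 0.58 and -0.55 in VP16LXRa 5 to 8 and 0.76, -0.37, -0.29 and 0.07 in controls 1 to 4. Each group thus held a tumour with high and a tumour with low levels.

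Levels of the members were also compared pair by pair over the arrays. Of the 28 pairs among the 8 genes, each compared over the 8 arrays, 23 had a Pearson correlation above 0, with a median of 0.53. The highest Pearson correlation was that of Pfkl with Aldoa, with Pearson's r = 0.89 (exact permutation p = 0.00399, two-sided, adjusted p = 0.0858) and Spearman's rho = 0.86 (exact permutation p = 0.0107, adjusted p = 0.10). Without the arrays farthest from the Pfkl median, controls 1 and 3, r was 0.83. Slc2a1 with Aldoa, the pair with the highest Spearman correlation, had r = 0.79 (exact permutation p = 0.0202, adjusted p = 0.121) and rho = 0.90 (exact permutation p = 0.00456, adjusted p = 0.10), with r = 0.93 without control 2 and VP16LXRa 8. Leaving out the 2 arrays farthest from the median of a pair's first gene moved other pairs in both directions. Tpi1 with Ldha fell from r = 0.73 to 0.29 and Pkm2 with Ldha from 0.48 to -0.44. Hk1 with Pkm2 rose from -0.03 to 0.87. None of the 28 passed an adjusted p of 0.05 by either measure. For Pearson's r, 7 had an unadjusted exact permutation p under 0.05. Of the 5 pairs below 0, 4 were of Eno1 with another gene and 1 was Hk1 with Pkm2. Without VP16LXRa 5 all 28 were above 0, with a median of 0.68. The share above 0 among pairs of all tested genes was not computed. These counts therefore do not set the members apart from other genes, and the 28 pairs share the same 8 genes. The arrays share a common normalisation, and groups of 4 are too small for a correlation within each.

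A list of 20 hypoxia-inducible factor genes and targets from outside the pathway, 17 of them tested, was set beside the glycolytic genes array by array, as were marker lists of cell types. The mean deviation of the hypoxia list was 0.12, -0.05, 0.31 and -0.36 in VP16LXRa 5 to 8 and 0.29, -0.19, 0.05 and -0.16 in controls 1 to 4. By this mean VP16LXRa 7 and control 1 were highest and VP16LXRa 8 lowest, as for the mean of the glycolytic genes. The signs of the 2 means differed in VP16LXRa 5 and in controls 3 and 4. By the median of the hypoxia list VP16LXRa 7 was highest, at 0.32, then VP16LXRa 5, at 0.18, with control 1 at 0.09. VP16LXRa 8 was lowest by the median too, at -0.24. The goblet cell score, a mean deviation over 5 tested markers, was -0.17, 0.79, 0.27 and -1.17 in VP16LXRa 5 to 8. In controls 1 to 4 it was 0.16, -0.76, -0.20 and 1.07. VP16LXRa 8 was lowest by this mean only. By the median of the markers control 2 was lowest, at -0.56, with VP16LXRa 8 at -0.058. The ileal enterocyte score, over 7 tested markers, differed in sign from the mean glycolytic deviation on every array. By the medians of both lists the signs were the same in VP16LXRa 5, 6 and 7. As a mean deviation the enterocyte score was 0.0029, 0.13, -0.04 and 0.65 in VP16LXRa 5 to 8. In controls 1 to 4 it was -0.65, 0.65, 0.50 and -1.25. VP16LXRa 8 and control 2 shared the highest enterocyte score to 2 digits, and controls 4 and 1 had the lowest. By the median of the markers control 2 was highest, at 0.52, with VP16LXRa 8 at 0.42. The epithelial score was 0.35 in control 1 and 0.36 in control 3, arrays whose mean glycolytic deviations were 0.76 and -0.29, and it was -0.07 in VP16LXRa 7 against -0.01 in VP16LXRa 8. Control 2 had the highest B and plasma cell score, 2.42, and control 3 the lowest smooth muscle score, -2.89. The part of any of these in the levels of the glycolytic genes was not tested.

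**Figure D3:**
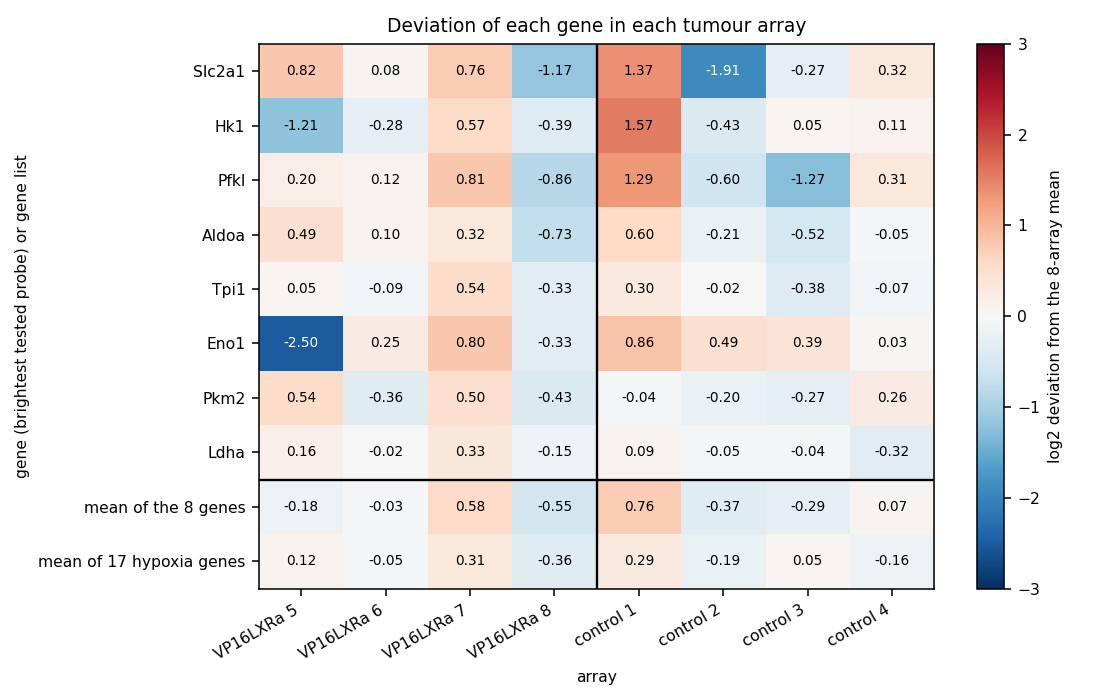
Log2 deviation from the 8-array mean of each gene's brightest tested probe (rows) in each array (columns, VP16LXRa left of the controls), with the mean of the 8 genes and the mean of 17 hypoxia genes below the line; red is high and blue is low. Control 1 and VP16LXRa 7 are high in most rows, VP16LXRa 8 is low in all 8 genes, and the darkest cell is Eno1 in VP16LXRa 5 at -2.50.

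The rest of the pathway was read from lists of named genes. Of 18 other glycolytic enzymes, 11 were tested and 0 passed the limma threshold in either direction, with a median difference of 0.019. Gapdh, the enzyme between Tpi1 and Pgk1, differed by 0.019 (SE 0.24), and like all 11 member probes it was higher in VP16LXRa 7, at 13.50, than in VP16LXRa 8, at 12.83. Hk3, a hexokinase of blood cells, had the smallest p in that list at -0.63 (SE 0.33, limma unadjusted p = 0.0870). Pfkp, the platelet-type phosphofructokinase, repeated the pattern of Eno1. Its log2 level of 6.79 in VP16LXRa 5 compared with 10.87 to 11.35 elsewhere, and the Pfkp difference of -1.11 (SE 0.91) became -0.011 without that array. The second Pfkp probe read 4.75 in VP16LXRa 5, with 8.17 to 8.69 elsewhere.

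Among 15 other hexose and lactate carriers, 9 were tested and 0 passed, with a median of 0.040. Slc2a6, a facilitated hexose carrier, differed by -0.96 (SE 0.55), and Slc2a4, the insulin-responsive GLUT4 and a known target of liver X receptor in fat, by 0.20 (SE 0.38). The lactate carriers Slc16a1, Slc16a3 and Slc16a7 did not pass the filter on dim probes and were not tested. Of 20 genes of pyruvate fate and glycolytic control, 15 were tested, 10 nominally higher and 5 nominally lower, with a median of 0.22 and 0 passing. Pdha1, a pyruvate dehydrogenase subunit, differed by 0.45 (SE 0.21, limma unadjusted p = 0.0635) and Txnip, which restrains glucose uptake, by -0.55 (SE 0.28, limma unadjusted p = 0.0738).

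Of 7 gluconeogenic genes, 6 were tested and 0 passed, with a median of 0.065. Pck1, which liver X receptor represses in liver, differed by 0.27 (SE 0.27), and G6pc, the glucose-6-phosphatase that releases free glucose, by 0.80 (SE 0.68). The lowest G6pc array was control 1, at 5.48, and the remaining arrays spanned 7.50 to 9.02. All 8 pentose phosphate genes were tested and 0 passed, with a median of 0.16. By brightest probe, 1 gene of that list had a limma unadjusted p under 0.05. It was Rpe, a pentose epimerase, at 0.99 (SE 0.39, limma unadjusted p = 0.0312). Rpe was at 4.58 to 4.63 in controls 1, 3 and 4, within the 4.39 to 5.05 of the undetected Pgk1 probe. The dimmer probe of Tkt, transketolase, was also under 0.05, at 0.50 (SE 0.22, limma unadjusted p = 0.0485). Of 9 genes of fructose and galactose entry, 8 were tested and 0 passed, with a median of 0.17.

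The hypoxia list had 9 genes nominally higher and 8 nominally lower, with a median of 0.010 and 0 passing. P4ha2, a collagen prolyl hydroxylase subunit, differed by 1.24 (SE 0.49, limma unadjusted p = 0.0322), with the 2 highest values in VP16LXRa 5 (8.30) and VP16LXRa 7 (8.24). Of 10 genes of the Myc and Max network, 7 were tested and 0 passed, with a median of -0.014. Myc itself did not pass the filter on dim probes. These lists, like the members, contained no gene past the adjusted threshold in these 8 arrays.

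**Figure D4:**
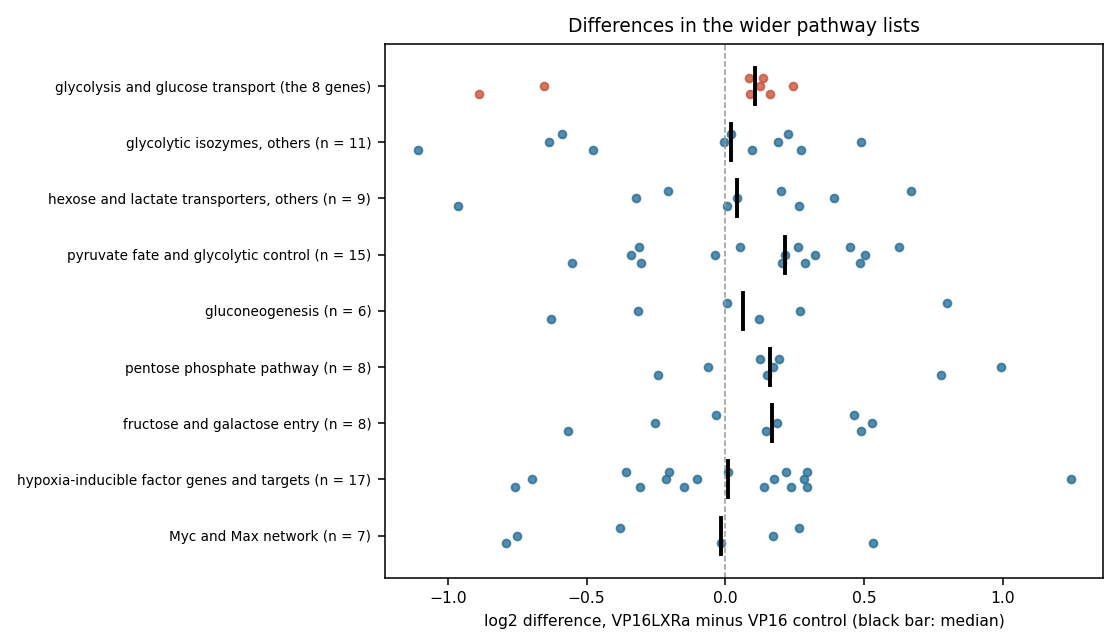
Log2 difference, VP16LXRa minus control (horizontal axis), of each tested gene by its brightest probe, one row per list, with red points for the 8 glycolytic and glucose transport genes, blue points for the wider lists and black bars for medians. All medians lie between -0.014 and 0.22, and every list has genes on both sides of 0.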

How the data were processed

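Total RNA of 8 tumours was measured on Illumina BeadChips, and the authors deposited a table of average bead signals, an intensity on a linear scale with no background subtraction or normalization, with a detection p-value for every probe on each array, per the file headers. The submitters' processing notes name GenomeStudio. The authors' second deposited table holds processed intensity values on a linear scale, with medians of 20.1 to 20.4 and 5897 to 5985 values below 0 per array. Its ranks followed the scanner signal (Spearman correlation of 1), its normalization is not stated, and it was tried in place of the scanner signal after raising values below 16 to 16.

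Signals were corrected with limma 3.58.1 (R 4.3.3) by normexp with inferred negative controls and an offset of 16, quantile-normalized and put on the log2 scale. Groups were compared with lmFit and eBayes over 13426 probes, with two-sided p-values adjusted by Benjamini-Hochberg and called below 0.05. The steps were tested on simulated data. A gene was represented by its brightest tested probe. All member probes are named; of each other list, up to 3 genes by smallest p and up to 2 by highest mean could be named. Slc2a4, Tkt, and genes named only because 1 array stood apart, fall outside that rule and were named after their values were seen. Some list genes are not reported here and were left out of that search. Members and lists were chosen with earlier results of these data known. Symbols are those of the table, with older symbols matched by hand to RefSeq synonyms. Promoter windows came from RefSeq. Probe sequences were not used, so whether probes bind near-identical copies was not tested. The number of arrays limits the precision.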

Additional observations from a re-analysis of the deposited data

Results flagged for a closer look

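The 4 values of each tested probe of members and reported list genes within a group were searched for 1 array standing away from its 3 companions. Of 214 such sets, 22 were from member probes and 0 of those stood out. The other 192 came from the wider lists, and 10 stood out, where chance over all 214 gives about 10.7. VP16LXRa 5 was the array apart in 5 of the 10. In that array Pfkp, a phosphofructokinase, was at 6.79, with its 3 companions at 10.98 to 11.33, and its dimmer probe at 4.75, with companions at 8.51 to 8.62. G6pc3, a glucose-6-phosphatase of most tissues, read 4.77 in VP16LXRa 5, with companions at 7.47 to 7.93. Pdhb, a pyruvate dehydrogenase subunit, read 7.56 there, with companions at 8.87 to 9.08. The dimmer Pdhb probe read 7.21 there, with companions at 7.33 to 7.46, and did not stand out. Mxd4, a partner of Max, read 4.42 there, with companions at 5.68 to 5.88. In VP16LXRa 7 the dimmer probe of Slc2a9, a urate carrier, was at 4.74, with companions at 5.09 to 5.16. In control 3, Slc2a4 was at 4.66, with companions at 5.46 to 5.55, and Tkt, transketolase, at 12.31, with companions at 12.70 to 12.78. Rpe was at 6.23 in control 2, with companions at 4.58 to 4.63. A dimmer probe of Car9, a carbonic anhydrase induced by hypoxia, was at 8.02 in control 1, with companions at 7.27 to 7.31.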

How the results depend on the processing

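No member passed the limma threshold under any of the 17 alternatives to the processing, or at an unadjusted p under 0.05. Over all probes, 1 passed with scaling to the 75th percentile, 1 with cyclic loess, 2 with array weights and between 0 and 2 with 1 array left out (2 without VP16LXRa 5, 1 without VP16LXRa 8 and 1 without control 3), and 340 had an unadjusted p under 0.05. The signs of Eno1, Hk1, Ldha, the dimmer Pfkl probe and the second Tpi1 probe were kept under every alternative in which they were tested. In all, 16 of 184 values turned their sign, in 5 settings. With array weights, Aldoa was at -0.035, Pfkl at -0.0060, Pkm2 at -0.0066, the third Tpi1 probe at 0.15 and the median of the 8 genes at -0.0063. With 1 array left out, Aldoa ranged from -0.064 (without control 3) to 0.35, Pfkl from -0.27 (without control 3) to 0.59, Pkm2 from -0.036 (without VP16LXRa 5) to 0.29, Slc2a1 from -0.35 (without control 2) to 0.74 and the brightest Tpi1 probe from -0.081 (without VP16LXRa 7) to 0.21. The third Tpi1 probe ranged from -0.64 to 0.014 (without VP16LXRa 5), and the median of the 8 genes from -0.049 to 0.26. Signs also turned for Aldoa without VP16LXRa 5 (-0.063) or VP16LXRa 7 (-0.0060), for Pfkl without VP16LXRa 7 (-0.11) or control 2 (-0.042), for Pkm2 without VP16LXRa 7 (-0.017) and for the brightest Tpi1 probe without control 3 (-0.027). The causes were not tested. A BeadChip block was not run, since no chip is given. No paired analysis was possible because the groups share no replicate number.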

Other observations

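A pair of genes that handle dietary sugar in absorptive cells are given here array by array. They were chosen after their values were seen. Slc5a1, the sodium-coupled glucose carrier of the gut, was at 11.18 to 11.75 in VP16LXRa tumours, against 10.30, 12.14, 12.43 and 9.48 in controls 1 to 4. Khk, the fructokinase, was by its brighter probe at 11.05 to 11.83 in VP16LXRa tumours, against 9.93, 12.10, 11.64 and 9.52 in controls 1 to 4. By these probes both genes were lowest in controls 1 and 4, and control 1 was the array with the highest Slc2a1. The other Khk probe was lowest in VP16LXRa 5, at 6.73, spanned 10.87 to 12.27 in the other VP16LXRa arrays, and was at 9.36, 11.70, 11.33 and 8.98 in controls 1 to 4. The ileal enterocyte score was also lowest in controls 1 and 4, at -0.65 and -1.25, and its part in these levels was not tested. Neither passed the limma threshold.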
